A study of Homo sapiens with 12 samples.

Results

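The experiment described here is the overexpression of deltaNp63 in AsPC-1 cells, set against mock AsPC-1 cells. It holds 4 of the 12 RNA-seq libraries of the study, 2 mock and 2 deltaNp63, and these were chosen by their labels. AsPC-1 is an established human line grown from the ascites of a patient with pancreatic adenocarcinoma. The remaining libraries were 2 of AsPC-1 overexpressing TAp63 and 6 of a second pancreatic cancer line, PANC-1, under mock, TAp63 and deltaNp63. The labels call the 2 libraries of a group biological replicates, and give neither the vector, nor the time after it, nor whether a group was a pool or 1 clone. The study concerned TP63 isoforms, squamous pancreatic tumours and their immune surroundings.

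TP63 encodes a transcription factor of the p53 family. Its upstream promoter gives TAp63, with the full transactivation domain at the amino end, and an internal promoter gives deltaNp63, which lacks that domain and begins with a short stretch of its own. DeltaNp63 is the main form in basal cells of skin and other stratified epithelia, where it maintains basal keratin and adhesion genes, and it marks the squamous or basal-like subtype of pancreatic cancer. The largest group of changes below concerns interferon-stimulated genes. Type I and type III (lambda) interferons signal through JAK kinases to a complex of STAT proteins and IRF9, which binds the interferon-stimulated response element in the promoters of antiviral genes.

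Transcript abundances in TPM, a relative level corrected for transcript length, were summed to genes. A gene was tested where 2 or more of the 12 libraries gave it 1 TPM or more, which left 14767 genes. Between 12212 and 12525 genes reached 1 TPM in each of the 4 libraries. In bulk RNA, fewer cells with a transcript and less of it per cell cannot be told apart. Read depth is not kept by TPM, so the precision rests on the replicates. The median absolute log2 difference between replicates was 0.13 for mock and 0.21 for deltaNp63. Changes are differences of log2(TPM + 1) between group means, called log2 changes here, with their standard error (SE) and a Benjamini-Hochberg adjusted p from limma. The verbs rose and fell are used for genes with an adjusted p under 0.05. The median log2 change of all tested genes was -0.12, so the centre of the distribution lay below 0.

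The construct was present in the libraries labelled deltaNp63. TP63 measured 1.10 and 0.817 TPM in mock and 245 and 350 TPM in deltaNp63. The log2 change was 7.23 ± 0.25 (SE, n = 2 against 2, adjusted p = 1.42e-06). Transcripts that start at the internal promoter held 99.9% and 99.7% of the TP63 TPM in the deltaNp63 libraries, against 38.0% and 17.0% of the much smaller amount in mock. The most abundant was TP63-212, with 92.6 and 135 TPM in deltaNp63 and 0 in both mock libraries. It was followed by TP63-211 with 81.3 and 103 TPM, TP63-205 with 43.6 and 70.8 TPM and TP63-213, a retained-intron model, with 26.5 and 35.4 TPM. The 3 coding models share their start and differ in coding length, with 1749 bases in TP63-212, 1506 in TP63-211 and 1251 in TP63-205. How a program splits the reads of 1 construct among them is not known here. TP63 lies on chromosome 3 from 189631389 to 189897276 on the plus strand (hg38), and TP63-212 starts at 189789801.

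The coding start that sets the deltaNp63 class apart is shown from GENCODE v44 (hg38, plus strand), beside the last upstream-class bases of a TAp63 transcript. Capitals mark bases that belong to 1 class, and the lower-case bases are the start of the 1708 coding bases that both transcripts share. The first line begins at the start codon of TP63-212, whose coding sequence has 1749 bases, 41 of them its own. The second line holds the last 42 of the 323 upstream-class coding bases of TP63-210.
TP63-212: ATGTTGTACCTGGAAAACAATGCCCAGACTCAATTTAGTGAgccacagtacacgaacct
TP63-210: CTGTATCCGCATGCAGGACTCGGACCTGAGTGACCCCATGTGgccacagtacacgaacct
TP63-210 was listed at 0 and 0.231 TPM in the 2 deltaNp63 libraries.

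Most called genes fell. Of the 14767 genes, 1055 were called (7.14%), 961 of which fell (6.51%) and 94 rose (0.637%). Among 12669 protein-coding genes 929 fell and 74 rose, and among 1472 long noncoding RNA genes 21 fell and 14 rose. Falls of at least 1 log2 unit were seen for 107 genes, and 62 of these belonged to 4 lists of interferon-related genes, namely antiviral effectors, interferon ligands with their receptors and signalling, nucleic acid sensors, and MHC class I presentation. The calls rest on the spread shared with the other groups. A fit of the 4 libraries alone called 0 genes (2020 at an unadjusted p under 0.05), and a fit of the 6 AsPC-1 libraries called 8. Leaving out a library gave 114 calls without the first deltaNp63 library (108 falls and 6 rises) and 4057 without the second, and 98 and 124 without the first or second mock library. After each library was centred on its median, which moved the median of all genes from -0.12 to 0.09, 249 genes were called higher and 170 lower.

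**Figure D1:**
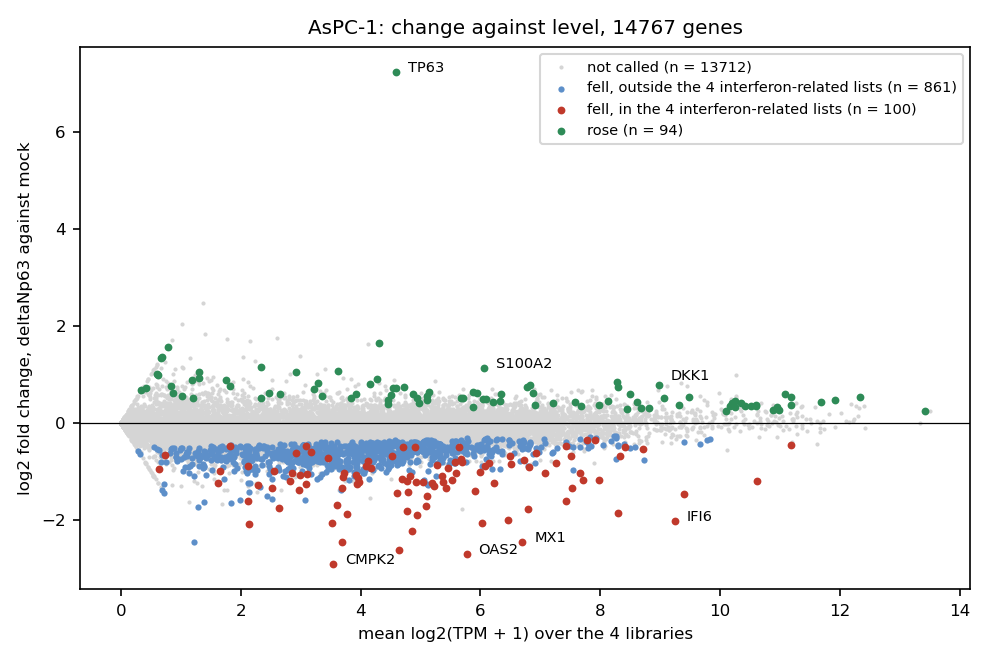
Log2 change of each gene in AsPC-1 (deltaNp63 against mock) over its mean log2(TPM + 1) in the 4 libraries, with 961 genes that fell, 94 that rose and the uncalled genes in grey. Most of the lowest points are genes of the 4 interferon-related lists, down to CMPK2 at -2.91, and TP63 stands alone at 7.23.

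A smaller set met further conditions. These genes were also called after median centring and when each cell line had its own weight in the fit, had mock and deltaNp63 values that did not overlap, and averaged at least 1 TPM. They numbered 160 (1.08%), with 157 falls (1.06%) and 3 rises, and are called the firm set below. Of the 157 firm falls, 77 were in the 4 interferon-related lists. The 157 were also lower in deltaNp63 under each of the other settings tried in which they were tested. Most of these settings could not turn the sign, since the set was chosen for values that do not overlap. Only quantile normalization and centring within groups of like GC content could have done so.

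Antiviral effectors included most of the genes that fell furthest. Of 74 tested members of this list, 67 fell (90.5%, against 6.51% of all genes) and 0 rose. Of the 67, 61 were in the firm set. The median log2 change was -1.20 against -0.12 for all genes. CMPK2, a mitochondrial nucleotide kinase induced by interferon, measured 32.4 and 29.4 TPM in mock and 2.27 and 4.45 TPM in deltaNp63. The mean fell 9.18-fold, with a log2 change of -2.91 ± 0.20 (SE, n = 2 against 2, adjusted p = 9.9e-05). Both deltaNp63 libraries were far below both mock libraries. OAS2, one of the enzymes that make 2′-5′ oligoadenylate to activate RNase L, measured 137 and 140 TPM in mock and 17.8 and 23.1 TPM in deltaNp63 (log2 change -2.71 ± 0.17, adjusted p = 7.37e-05). Its relatives moved the same way, OAS3 from 168 and 183 to 37.9 and 48.9 TPM and OAS1 from 315 and 285 to 81.4 and 118 TPM.

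The myxovirus-resistance GTPases, which block viral replication in the cytoplasm and nucleus, fell as a pair. MX1 measured 228 and 256 TPM in mock and 37.8 and 49.97 TPM in deltaNp63, a log2 change of -2.44 ± 0.18 (adjusted p = 9.9e-05). MX2 measured 53.7 and 68.0 TPM in mock and 9.30 and 8.82 TPM in deltaNp63, a log2 change of -2.61 ± 0.22 (adjusted p = 0.000215). For both genes the groups were well apart. Among the IFIT proteins, which bind foreign RNA ends, IFIT3 measured 131 TPM in both mock libraries and 28.6 and 33.3 TPM in deltaNp63 (log2 change -2.05 ± 0.10, adjusted p = 1.51e-05). IFIT1 measured 223 and 186 TPM in mock and 55.3 and 63.1 TPM in deltaNp63. RSAD2, which encodes the antiviral enzyme viperin, went from 27.0 and 23.2 to 7.22 and 5.196 TPM.

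Abundant antiviral transcripts fell as well. IFI6, which encodes a small mitochondrial and endoplasmic reticulum protein, measured 1243 and 1195 TPM in mock and 261 and 344 TPM in deltaNp63 (log2 change -2.02 ± 0.13, adjusted p = 7.37e-05). IFITM1, a membrane protein that hinders viral entry, measured 574 and 621 TPM in mock and 136 and 197 TPM in deltaNp63 (log2 change -1.86 ± 0.16, adjusted p = 0.00025). UBE2L6, the conjugating enzyme for ISG15, went from 28.7 and 29.3 to 4.18 and 4.83 TPM. SAMHD1, a hydrolase of deoxynucleotides, went from 10.4 TPM in both mock libraries to 2.19 and 2.55 TPM. IFI44L, BATF2 and XAF1 had log2 changes of -2.08, -2.05 and -1.89. In each of these genes the 2 deltaNp63 values lay below the 2 mock values.

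The antiviral members that were not called numbered 7 of 74. Among these, ISG20, an RNA exonuclease, measured 93.7 and 116 TPM in mock and 103 and 99.1 TPM in deltaNp63 (log2 change -0.05 ± 0.10). TRIM25 and SLFN5 had log2 changes of 0.14 and 0.18, and GBP2 one of -0.22. These genes were picked out after their values were seen. ISG15 itself was not analysed here.

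**Figure D2:**
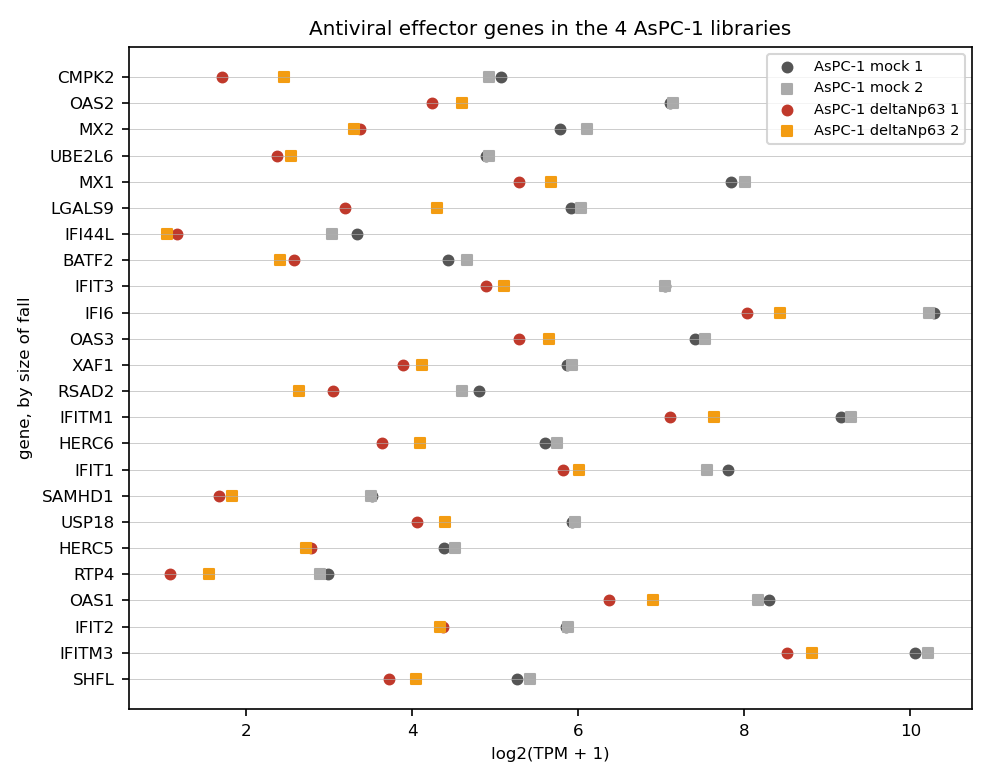
Level in log2(TPM + 1) of the 24 antiviral effector genes with the largest falls in the 2 mock libraries (grey) and the 2 deltaNp63 libraries (red and orange) of AsPC-1. In every row both deltaNp63 points lie left of both mock points.

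The listed interferon ligands above 1 TPM in the 4 libraries were of the lambda family, and they fell. IFNB1, the type I ligand that was tested, was at most 0.900 TPM. IFNL3 measured 8.12 and 8.14 TPM in mock and 3.12 and 2.14 TPM in deltaNp63 (log2 change -1.34 ± 0.16, adjusted p = 0.00272). IFNL1 measured 5.99 and 7.31 TPM in mock and 1.83 and 2.46 TPM in deltaNp63 (log2 change -1.28 ± 0.14, adjusted p = 0.00129). IFNL2 went from 10.9 and 13.5 to 4.56 and 4.47 TPM, but IFNL2 and IFNL3 are near-identical copies and the share of reads given to each is uncertain. STAT2, which carries the signal to the nucleus, fell from 23.2 and 24.6 to 11.6 and 12.4 TPM (log2 change -0.94 ± 0.10, adjusted p = 0.000842).

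Receptors and the kinase were not called. IFNLR1, the chain specific to lambda interferon, had a log2 change of -0.04 ± 0.20, IFNAR1, a chain of the type I receptor, one of 0.09 ± 0.35, and JAK1 one of -0.03 ± 0.13. IRF9, the DNA-binding partner of STAT2, measured 146 and 173 TPM in mock and 142 and 125 TPM in deltaNp63 (log2 change -0.25 ± 0.12, adjusted p = 0.177). In the whole list of ligands, receptors and signalling, 8 of 29 tested members fell (27.6%, against 6.51% of all genes) and 0 rose. The median log2 change was -0.27, against -0.12 for all genes. It became 0.06 when libraries were centred within groups of like GC content, against 0.08 for all genes. After median centring it was -0.06, against 0.09 for all genes.

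Sensors of foreign nucleic acid were lower as well. Of 26 tested members of the list 18 fell (69.2%, against 6.51% of all genes) and 0 rose (median log2 change -0.86). Of the 18, 10 were in the firm set. After median centring 10 fell (median -0.65), and with weights by cell line 10. Centring within GC groups gave 14 falls and 1 rise. The list shares OAS1, OAS2, OAS3, SAMHD1, IFIH1, ADAR, DDX60 and EIF2AK2 with the antiviral list and NLRC5 with the MHC class I list. The firm falls in neither of those lists were RIGI and DHX58. RIGI, a sensor of viral RNA in the cytosol, measured 63.4 and 71.6 TPM in mock and 26.8 and 25.5 TPM in deltaNp63 (log2 change -1.33 ± 0.13, adjusted p = 0.00046). The related helicases IFIH1 and DHX58 had log2 changes of -1.03 and -1.26. On the DNA side, CGAS (-0.47, adjusted p = 0.0495) and STING1 (-0.78, adjusted p = 0.0381) fell but were outside the firm set. IFI16, a DNA sensor chosen after its values were seen, measured 55.3 and 63.0 TPM in mock and 31.2 and 23.7 TPM in deltaNp63.

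MHC class I presentation, which displays peptides to CD8 T cells, had 16 falls (76.2%, against 6.51% of all genes) and 0 rises among 21 tested members. The median log2 change was -0.49. After median centring 8 fell with a median of -0.28, and after centring within GC groups 8 with a median of -0.32. HLA-B measured 57.9 and 66.004 TPM in mock and 27.4 and 24.9 TPM in deltaNp63 (log2 change -1.21 ± 0.12, adjusted p = 0.000513). HLA-C went from 58.1 and 61.0 to 29.7 and 31.8 TPM. B2M, the light chain, measured 2925 and 2538 TPM in mock and 2179 and 1817 TPM in deltaNp63 (log2 change -0.45 ± 0.10, adjusted p = 0.0356), and was outside the firm set (adjusted p = 0.231 after median centring). The HLA genes are polymorphic near-copies of one another, so the division of reads among them is uncertain.

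The peptide supply for these molecules moved with them. TAP1, a subunit of the peptide transporter, measured 51.8 and 58.7 TPM in mock and 19.7 and 26.8 TPM in deltaNp63 (log2 change -1.23 ± 0.17, adjusted p = 0.006). The immunoproteasome subunits PSMB9 and PSMB8 had log2 changes of -1.17 and -1.01, and NLRC5, the transactivator of class I genes, one of -1.12. TAP1, PSMB9 and PSMB8 overlap one another or a neighbouring gene, and strand use in the quantification is not given in the sources used here. In the class II list 3 of 7 tested members fell (42.9%, against 6.51% of all genes), among them CD74 (-0.58, adjusted p = 0.0487). None of the 3 was in the firm set. The list gave 0 falls after median centring, with weights by cell line or after quantile normalization, and 1 after centring within GC groups. HLA-DRA measured 6.74 and 7.60 TPM in mock and 6.85 and 6.87 TPM in deltaNp63.

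Promoters were searched for the core of the interferon-stimulated response element, GAAA followed by any 2 bases and GAAA, on both strands, in RefSeq windows (GRCh38.p14) from 250 bases before to 50 after the start of a gene. The core was present in 294 of the 10824 tested genes with a window (2.72%). Of the 100 genes that fell in the 4 interferon-related lists, 79 had a window and 46 of these held the core (58.2%). Among genes that fell outside those lists it was 27 of 657 (4.11%), and among genes that rose 1 of 69. Antiviral members that were not called held it in 3 of 5 windows. Of 57 firm falls outside those lists with a window, 8 held the core, namely CFB, FAM111A, OGFR, PSMB8-AS1, TNFRSF1B, TNFSF10, TRIM34 and TRIM69. A match is a description of the letters only. The 5 stretches below are from genes whose values are given above or in the plot of antiviral genes by library, each read on the strand of its gene, with the core or its reverse complement in capitals.
IFIT1 chr10:89392495-89392554 plus strand: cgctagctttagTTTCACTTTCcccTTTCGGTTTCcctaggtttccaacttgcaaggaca
IFI6 chr1:27672251-27672310 minus strand: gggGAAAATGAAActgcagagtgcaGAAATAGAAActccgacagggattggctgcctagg
OAS3 chr12:112938414-112938473 plus strand: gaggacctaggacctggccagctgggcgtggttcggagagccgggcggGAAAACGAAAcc
IFITM1 chr11:313975-314034 plus strand: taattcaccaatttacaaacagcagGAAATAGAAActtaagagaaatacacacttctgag
RTP4 chr3:187368325-187368384 plus strand: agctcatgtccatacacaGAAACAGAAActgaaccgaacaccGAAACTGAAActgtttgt
The core ends 94 bases before the start site in IFIT1, 84 in IFI6, 3 in OAS3, 31 in IFITM1 and 9 in RTP4. Log2 changes of these genes lay between -2.02 in IFI6 and -1.62 in RTP4.

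Genes of the firm set outside every list included several that are also known to respond to interferon. UBA7, the activating enzyme for ISG15, measured 5.52 and 5.14 TPM in mock and 0.838 and 1.21 TPM in deltaNp63 (log2 change -1.65 ± 0.13, adjusted p = 0.000187). SLC15A3, a lysosomal peptide transporter, went from 8.47 and 9.47 to 2.61 and 2.09 TPM. CFB, complement factor B, went from 43.3 and 55.3 to 22.02 and 20.3 TPM. UBA7, SLC15A3 and CFB were picked out after their values were seen. UST-AS2, a noncoding RNA named by the rule for large falls, was listed at 8.45 and 2.14 TPM in mock and at 0 in both deltaNp63 libraries.

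Of 31 tested chemokines and cytokines 4 fell (12.9%, against 6.51% of all genes) and 0 rose (median log2 change -0.16). TNFSF10, the death ligand TRAIL, measured 6.05 and 5.64 TPM in mock and 1.05 and 1.54 TPM in deltaNp63 (log2 change -1.58 ± 0.15, adjusted p = 0.000489). CSF1, the macrophage growth factor, measured 4.39 and 4.66 TPM in mock and 2.14 TPM in both deltaNp63 libraries (log2 change -0.82 ± 0.13, adjusted p = 0.0128). IL1B fell from 8.12 and 9.19 to 5.26 and 6.13 TPM. The neutrophil chemokines did not pass the test. CXCL8 measured 32.2 and 30.6 TPM in mock and 54.6 and 35.7 TPM in deltaNp63, and CXCL10, an interferon-induced chemokine, measured 1.98 and 2.26 against 0.864 and 0.796 TPM (adjusted p = 0.0579).

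In the NF-kappaB list 6 of 27 tested members fell (22.2%, against 6.51% of all genes), with a median log2 change of -0.20. These were the target genes ICAM1 (log2 change -0.94), TNFAIP2 (-0.81), SOD2 (-0.77), BCL3 (-0.52) and TNIP1 (-0.63), and the receptor TNFRSF1B (-0.90). The feedback inhibitor NFKBIA (-0.21) and the subunit NFKB1 (-0.05) were not called. After median centring 4 members of the list were called lower, with a median log2 change of 0.009, against 0.09 for all genes. Among 14 tested checkpoint ligands 3 fell (21.4%). The largest fall was that of LGALS9, galectin-9, from 59.0 and 64.7 to 8.14 and 18.7 TPM (log2 change -2.23 ± 0.30, adjusted p = 0.00483). CD274, which encodes PD-L1, was at most 0.532 TPM in the 4 libraries.

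In the TGF-beta list 7 of 33 tested members fell (21.2%, against 6.51% of all genes) and 1 rose (median log2 change -0.22). After median centring 2 members were called lower and 1 higher, with a median log2 change of -0.01. TGFBR2, the type II receptor, measured 96.8 and 80.0 TPM in mock and 39.6 and 55.2 TPM in deltaNp63 (log2 change -0.90 ± 0.15, adjusted p = 0.0169). The ligand TGFB1 measured 22.1 and 22.9 TPM in mock and 12.5 and 14.8 TPM in deltaNp63 (log2 change -0.69 ± 0.11, adjusted p = 0.0103). BMP4, a related ligand chosen after its values were seen, went from 30.8 and 20.5 to 7.80 and 14.9 TPM. CCN2, a secreted matrix protein that is also a YAP target, was the member that rose, from 24.7 and 30.5 to 38.4 and 43.1 TPM (log2 change 0.55 ± 0.13, adjusted p = 0.0398). DKK1, a secreted Wnt antagonist, was the largest firm rise after TP63. It measured 355 and 414 TPM in mock and 766 and 573 TPM in deltaNp63 (log2 change 0.79 ± 0.13, adjusted p = 0.0137). ELP5, an Elongator subunit that overlaps CLDN7 and CTDNEP1, was the other, at 164 and 163 TPM in mock and 222 and 220 TPM in deltaNp63.

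**Figure D3:**
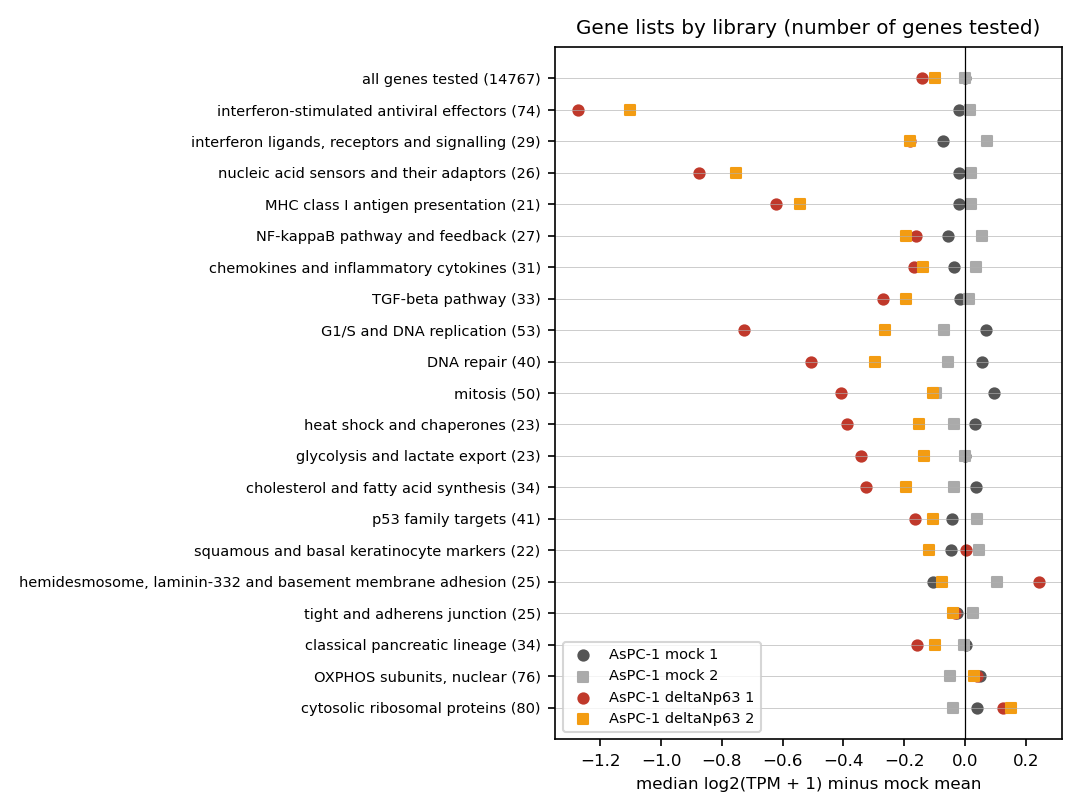
Median log2(TPM + 1) of 20 gene lists and of all 14767 tested genes in each of the 4 AsPC-1 libraries, minus the mean of the 2 mock libraries. Antiviral effectors lie at -1.27 and -1.10 in deltaNp63 1 and 2, while G1/S and DNA replication genes lie at -0.73 and -0.26.

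Squamous genes, which deltaNp63 is known to maintain in stratified epithelia, gave 2 calls. Of 52 squamous and basal keratinocyte markers 22 were expressed enough to be tested, 2 rose (9.09%, against 0.637% of all genes) and 0 fell, with a median log2 change of -0.02. Both rises were lost with weights by cell line, after quantile normalization and without the first deltaNp63 library. S100A2, a calcium-binding protein of basal cells, measured 38.1 and 51.1 TPM in mock and 144 and 66.7 TPM in deltaNp63 (log2 change 1.13 ± 0.29, adjusted p = 0.0468). The first deltaNp63 library was the higher of its pair, and both were above mock. SFN, which encodes 14-3-3 sigma, measured 390 and 507 TPM in mock and 690 and 584 TPM in deltaNp63 (log2 change 0.51 ± 0.12, adjusted p = 0.0432). KRT5 was listed at 0 in the 4 libraries, and KRT6A and KRT14 were at most 0.178 and 0.150 TPM. DSG3, TRIM29 and SERPINB5 had log2 changes of -0.00, -0.04 and -0.20, and were not called.

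Hemidesmosome and laminin-332 genes, which anchor basal cells, gave 3 falls (12%, against 6.51% of all genes) and 0 rises among 25 tested members. LAMB3 measured 787 and 1290 TPM in mock and 1820 and 1206 TPM in deltaNp63 (log2 change 0.56 ± 0.23, adjusted p = 0.145), so the groups overlapped. LAMA3 measured 189 and 253 against 367 and 222 TPM, and ITGA6 measured 261 and 305 against 472 and 285 TPM. In these 3 genes the first deltaNp63 library was the highest and the second lay within the mock range. The members that fell were LAMB1 (log2 change -0.50), AGRN (-0.40) and DAG1 (-0.77), parts of the general basement membrane and its receptor.

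Markers of the classical pancreatic lineage gave 1 fall among 34 tested members (2.94%, against 6.51% of all genes), with a median log2 change of -0.11. GATA6, the main classical regulator, measured 48.4 and 64.8 TPM in mock and 63.6 and 56.3 TPM in deltaNp63. Among 25 junction genes 0 were called by limma (CDH1 at 81.8 and 101 against 123 and 104 TPM, adjusted p = 0.209). Of 26 tested mesenchymal genes 1 rose (3.85%, against 0.637% of all genes) and 0 fell. The 1 was SNAI2, which encodes SLUG, from 206 and 283 to 496 and 331.8 TPM (log2 change 0.75 ± 0.19, adjusted p = 0.0495). SNAI2 was outside the firm set. The list gave 0 rises with weights by cell line or after quantile normalization, and 1 after median centring. VIM was not called (-0.14). SNAI2 was picked out after its values were seen. In the p53 family target list 1 of 41 tested members rose, SFN (2.44%, against 0.637% of all genes). The 1 that fell was PHLDA3, with a log2 change of -0.93 (2.44%, against 6.51% of all genes). CDKN1A, the cell-cycle inhibitor p21, measured 281 and 344 TPM in mock and 300 and 263 TPM in deltaNp63.

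Replication and repair genes were lower in both deltaNp63 libraries, and by more in the first. In the G1/S and DNA replication list 13 of 53 tested members fell (24.5%, against 6.51% of all genes) and 1 rose. The list median was -0.73 in the first deltaNp63 library and -0.26 in the second, relative to the mock mean (-0.14 and -0.10 for all genes). In 37 of the 53 members both deltaNp63 values lay below both mock values, against 6066 of all 14767 genes (41.1%). MCM2, of the replicative helicase, measured 24.6 and 20.6 TPM in mock and 8.14 and 14.9 TPM in deltaNp63 (log2 change -0.97 ± 0.21, adjusted p = 0.037). PCNA, the polymerase clamp, measured 153 and 114 TPM in mock and 60.5 and 96.9 TPM in deltaNp63 (-0.78 ± 0.20, adjusted p = 0.048). E2F1 went from 31.2 and 30.9 to 13.9 and 23.5 TPM. CCND3, cyclin D3, was the firm fall of this list, from 19.6 and 19.9 to 8.98 and 11.2 TPM (-0.91 ± 0.12, adjusted p = 0.00396). PRIM2, a primase subunit, was the member that rose (0.76).

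In the DNA repair list 12 of 40 tested members fell (30%), with a median of -0.51 in the first deltaNp63 library and -0.30 in the second. In 29 of the 40 both deltaNp63 values lay below both mock values, against 41.1% of all genes. BRCA1 measured 21.4 and 17.6 TPM in mock and 8.001 and 12.8 TPM in deltaNp63 (log2 change -0.88 ± 0.18, adjusted p = 0.0295). PARP1, which senses strand breaks, UNG, which removes uracil, and the checkpoint kinase CHEK2 had log2 changes of -1.02, -0.98 and -0.95 and were chosen after their values were seen. Mitotic genes gave 4 falls among 50 (8%), a share near the 6.51% of all genes, with MKI67 (-0.70) and FOXM1 (-0.80) among them, while CDK1 measured 99.2 and 78.0 TPM in mock and 93.1 and 90.8 TPM in deltaNp63. Without the first deltaNp63 library, 1 G1/S gene and 0 repair genes were called as falls by limma, of 108 falls in all. Without the second, 39 and 23 were, of 3277.

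The first deltaNp63 library also stood apart by base composition. Across the 14767 genes, the difference from the mock mean had a Spearman correlation with transcript GC content of -0.36 in the first deltaNp63 library and -0.14 in the second, a description over genes of 1 library each. In the quintile of genes with the lowest GC the medians were 0.03 and -0.06, and in the quintile with the highest they were -0.36 and -0.16. The share of genes that fell went from 2.98% to 9.78% across the same quintiles. Median GC was 50.3% for the 100 falls in the interferon-related lists, 55.4% for the 861 other falls and 49.8% for all genes. The 2 mock libraries differed from each other by GC as well (Spearman 0.24). The part of GC in the falls outside the interferon-related lists was not tested.

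**Figure D4:**
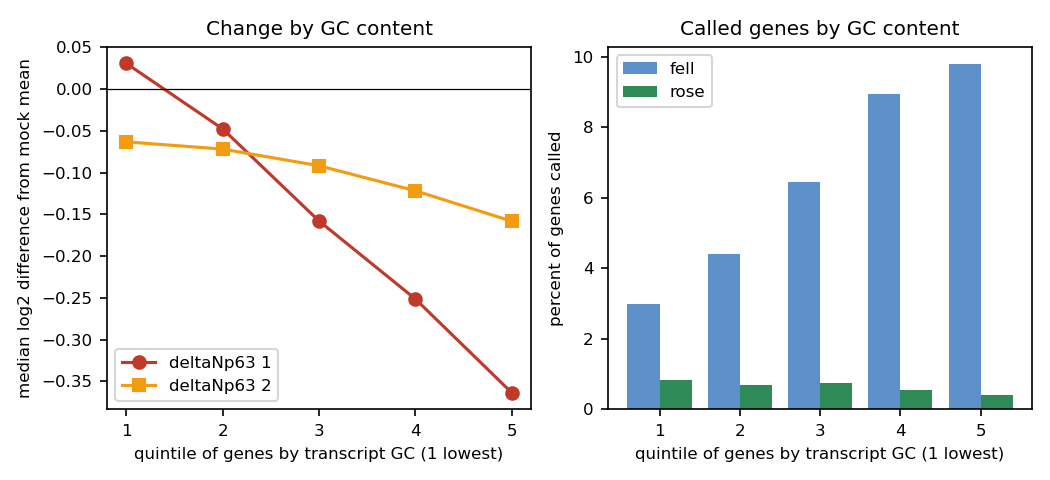
Left, median log2 difference from the mock mean in quintiles of genes by transcript GC content for each deltaNp63 library, from 0.03 to -0.36 in the first and from -0.06 to -0.16 in the second. Right, percent of the genes in each quintile that fell or rose, with falls going from 2.98% to 9.78%.

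Both sets of falls were larger in the first deltaNp63 library. Over the 100 genes the median difference from the mock mean was -1.24 in the first and -1.002 in the second, and 70.0% of these genes were lower in the first. Over the 861 other falls it was -0.74 and -0.46, and 86.4% of these were lower in the first library. When each library was centred within 50 groups of genes of like GC, a setting added after the data were seen, 61 antiviral effectors, 4 G1/S genes and 5 repair genes were called lower, of 204 genes in all. Settings without any grouping by GC differed among themselves. In the same order of lists, the main fit called 67, 13 and 12 genes lower (961 in all). Plain median centring called 61, 1 and 0 lower (170 in all), and weights by cell line 62, 2 and 0 (183 in all). Without the first deltaNp63 library 54 antiviral effectors were called lower.

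Ribosomal protein genes were the list with the most rises. Of 80 tested members 12 rose (15%, against 0.637% of all genes) and 0 fell, with a median log2 change of 0.15. In 49 of the 80 the 2 deltaNp63 values were above both mock values, against 1632 of all 14767 tested genes (11.1%). RPS3A measured 1928 and 1600 TPM in mock and 2816 and 2513 TPM in deltaNp63 (log2 change 0.60 ± 0.13, adjusted p = 0.0366). RPS6, the S6 kinase substrate of the small subunit, measured 1105 and 966 TPM in mock and 1483 and 1353 TPM in deltaNp63 (0.45 ± 0.10, adjusted p = 0.0366). The elongation factor EEF1A1 went from 10297 and 9843 to 11841 and 12181 TPM (0.25 ± 0.05, adjusted p = 0.032), while EEF2 was not called (-0.16). Ribosomal protein genes have many processed copies, and the sharing of reads with these is uncertain. None of the 12 was in the firm set, and 0 were called by limma with weights by cell line or without the first deltaNp63 library, 3 after quantile normalization and 34 after median centring. Their transcripts had a median length of 625.5 bases against 2176 for all genes, and the part of length was not tested.

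Other rises were scattered over functions. MIR4435-2HG, a long noncoding RNA, measured 224 and 238 TPM in mock and 533 and 327 TPM in deltaNp63 (log2 change 0.85 ± 0.18, adjusted p = 0.0361). S100A6, a calcium-binding protein, went from 4177 and 4412 to 7182 and 5442 TPM, and TPT1, a translationally controlled growth protein, from 3385 and 3137 to 4989 and 4129 TPM. RND1, a small GTPase, went from 10.9 and 14.2 to 24.7 and 20.5 TPM, and CYP3A5, a drug-metabolizing cytochrome, from 78.5 and 88.8 to 157 and 124 TPM. These 5 genes were chosen after their values were seen, and none of them was in the firm set. For 20.2% of the 94 genes that rose the first deltaNp63 library was the lower of the pair.

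Metabolic and stress lists differed in their share of falls, which was 6.51% over all genes. Of 76 nuclear OXPHOS subunits 2 rose (NDUFB9 and ATP5PB, log2 changes 0.36 and 0.30), and of 13 mitochondrial ones 0 were called by limma. In glycolysis 5 of 23 tested members fell (21.7%), with HK1, a hexokinase, from 21.4 and 21.6 to 13.5 and 13.9 TPM (-0.61 ± 0.10, adjusted p = 0.0124), while GAPDH and LDHA were not called. In sterol and fatty acid synthesis 6 of 34 fell (17.6%), SQLE (-0.51) among them, and HMGCS1 measured 88.2 and 121 TPM in mock and 183 and 133 TPM in deltaNp63 (adjusted p = 0.053). Heat shock genes gave 6 falls among 23 (26.1%), including HSPA1A (-0.66) and HSP90AA1 (-0.43). In the unfolded protein and stress response list 5 of 39 fell (12.8%), led by SDF2L1 (-0.82), while ATF4 (0.18) and DDIT3 (0.10) were not called. Falls in the glycolysis, sterol, heat shock and stress response lists numbered 1, 0, 1 and 1 after median centring (170 over all genes). With weights by cell line they also numbered 1, 0, 1 and 1 (183 over all genes). Relative to the mock mean, glycolysis medians were -0.34 and -0.13 in the first and second deltaNp63 library. Heat shock medians were -0.39 and -0.15, against -0.14 and -0.10 for all genes.

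Growth and signalling lists also ranged from shares near those of all genes to higher ones. Apoptosis genes gave 7 falls among 32 (21.9%), including CASP2 (log2 change -0.70) and the effector BAK1 (-0.37). Among chromatin regulators 4 of 51 fell (7.84%), near the share over all genes, with DNMT1, the maintenance DNA methyltransferase, from 31.0 and 23.3 to 12.1 and 15.3 TPM. Notch genes gave 4 falls among 27 (14.8%; HES1 -0.43, LFNG -0.80), and the YAP and TEAD list 3 falls (11.1%) and 1 rise among 27, with AMOTL1 at -0.77. Among proteases 3 of 27 fell (11.1%), MMP7 from 456 and 408 to 294 and 308 TPM (-0.52 ± 0.09, adjusted p = 0.0179). EGF family and hypoxia genes gave 0 calls by limma among 10 and 22 tested members, with AREG at 1557 and 1770 TPM in mock and 2210 and 2078 TPM in deltaNp63. Falls in the apoptosis, chromatin, Notch, YAP and protease lists numbered 1, 1, 0, 1 and 0 after median centring (170 over all genes). With weights by cell line they numbered 1, 1, 0, 2 and 1 (183 over all genes). Over the 45 lists with at least 5 tested genes outside the 4 interferon-related ones, median log2 changes lay between -0.48 and 0.15.

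Cell identity was checked against markers. EPCAM measured 1372 and 1256 TPM in mock and 1384 and 1330 TPM in deltaNp63, and KRT19 lay between 1908 and 2441 TPM, so epithelial markers were high in the 4 libraries. KRT8 measured 3702 and 3575 TPM in mock and 2034 and 3609 TPM in deltaNp63, and was not called. PTPRC and CD3E, which define leukocytes, were at most 0.0102 TPM, COL1A1 and COL3A1 at most 0.293 and 0.0992 TPM, and CDH5, CPA1, INS and GCG were listed at 0. LUM, a proteoglycan usual in fibroblasts, lay between 184 and 288 TPM without the collagens. CD68, a lysosomal protein usual in macrophages, measured 115 and 126 TPM in mock and 91.9 and 90.8 TPM in deltaNp63 (log2 change -0.39, adjusted p = 0.0362), and the change was 0.0043 under GC centring.

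The AsPC-1 libraries with TAp63 share the mock controls, so the 2 effects are set side by side and compared by the direct test. In that test 3 of 14767 genes were called (0.0203%), RASSF10, RPL39P15 and ENSG00000230355, each higher with deltaNp63 and each below 3 TPM in the 6 libraries. TP63 itself was 102 and 170 TPM in the TAp63 libraries, of which 35.7% and 40.2% was assigned to internal-start transcripts. For the 100 interferon-related falls the median log2 change from mock was -1.13 with deltaNp63 and -0.79 with TAp63. CMPK2 measured 6.72 and 5.93 TPM with TAp63, against 2.27 and 4.45 TPM with deltaNp63, a direct difference of -0.79 ± 0.20 (adjusted p = 0.628). MX1 measured 64.9 and 92.8 TPM with TAp63 and was lower with deltaNp63 by a log2 difference of -0.82 ± 0.18 (adjusted p = 0.611). Without the second deltaNp63 library 1025 genes were called, and at a mean of at least 5 TPM 0 were. None of the 100 genes passed the direct test, which does not show that the isoforms act alike.

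The change in AsPC-1 differed from that in PANC-1 for 86 genes (0.582%), and for 83 of these the AsPC-1 change was the lower. The count lay between 44 and 2196 on leaving out 1 of the 4 AsPC-1 libraries, with the highest without the second deltaNp63 library. Of 141 tested genes in the 4 interferon-related lists 58 differed, each with the lower change in AsPC-1. The median log2 change of the 141 genes was 0.03 in PANC-1 and -0.89 in AsPC-1. In PANC-1 0 of them were called by limma. OAS2 in PANC-1 measured 146 and 148 TPM in mock and 130 and 165 TPM in deltaNp63, a level close to that of mock AsPC-1, and the difference between the log2 changes was -2.71 ± 0.24 (adjusted p = 0.00154). MX1 measured 429 and 439 TPM in mock PANC-1 and 411 and 503 TPM in its deltaNp63 libraries, with a difference of -2.51 ± 0.25 (adjusted p = 0.00189). IFNL3 was far higher in PANC-1, at 353 and 384 TPM in mock and 487 and 579 TPM in deltaNp63, and its difference was -1.87 ± 0.23 (adjusted p = 0.00552). TP63 reached 815 and 1187 TPM in PANC-1, above the level in AsPC-1, so the PANC-1 values were measured at a higher level of the construct. In PANC-1 6 genes were called in all (0.0406%).

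**Figure D5:**
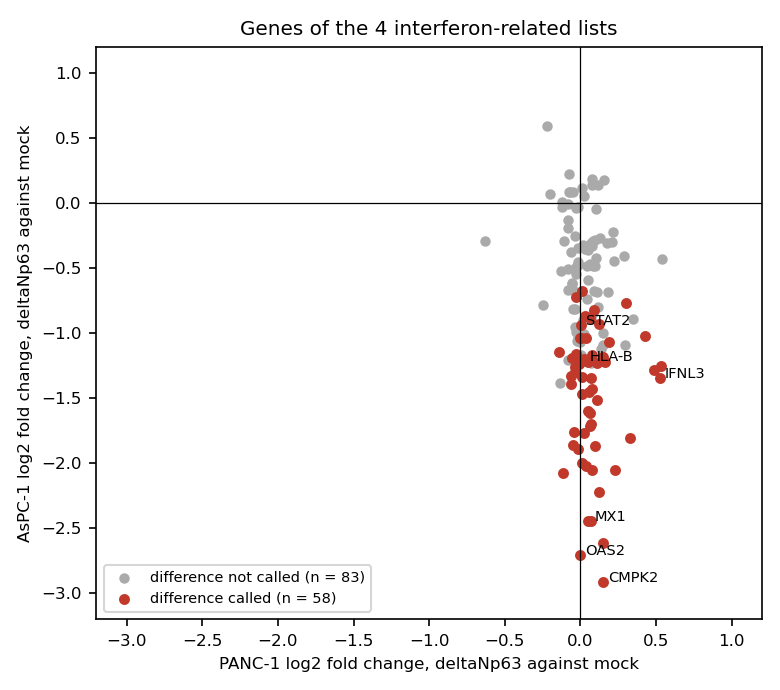
Log2 change with deltaNp63 against mock in AsPC-1 (vertical) and PANC-1 (horizontal) for 141 genes of the 4 interferon-related lists, red where the difference between the lines was called (58 genes). PANC-1 changes stay between -0.63 and 0.54, while AsPC-1 changes reach -2.91 in CMPK2.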

How the data were processed

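RNA was measured in 12 libraries of AsPC-1 and PANC-1 cells, 2 in each of 6 groups, made per the labels' protocols with a column kit for total RNA and a stranded mRNA kit. The authors deposited TPM values for 153329 Ensembl transcripts, each column summing to 1000000. The quantifier, genome build and annotation are not given in the sources used here, and read depth is unknown. Transcripts were matched to GENCODE v44 (hg38), which paired 139819 of them (91.2%) and held between 89.6% and 90.5% of a library's TPM, and were summed to 39099 genes. Of 312 genes given values, 138 overlap another gene, and their reads may be shared.

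Log2(TPM + 1) values of 14767 genes were fitted with limma 3.58.1 in R 4.3.3 (package data.table, version 1.17.8; lmFit, contrasts, eBayes with trend), with 6 group means and 6 residual degrees of freedom. This scale understates changes of low genes. P-values are two-sided and adjusted by Benjamini-Hochberg within a contrast at 0.05. In the main fit each gene had a single residual spread, shared by all 12 libraries, behind its SE and p-value. Replicates differed more among AsPC-1 libraries (median residual SD of a gene 0.153) than among PANC-1 libraries (0.106). The shared spread can therefore make AsPC-1 p-values too small. P-values measure the spread between the 12 libraries, which the labels call biological replicates. Where these were not separate cultures, that spread may be technical. Named were TP63, the 12 largest rises (3 qualified) and 15 largest falls of the firm set, up to 5 firm members and the lead genes of each list, and up to 5 genes each way for the other 2 contrasts; the remaining genes with their own values are called picked out or chosen after seeing these. The members and the 52 lists were chosen with earlier results of these data known, so list counts are descriptions. Alternatives were other scalings, filters, pseudocounts, weights, sets of libraries, a replicate block and leaving out each replicate. Promoter windows came from RefSeq. Python 3.11.15 with pandas 2.3.3, scipy 1.17.1 and matplotlib 3.10.9 was used for sums, sequences and plots. Some genes are not reported here.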

Additional observations from a re-analysis of the deposited data

Results flagged for a closer look

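The effect of deltaNp63 differed between the lines for 86 of the 14767 genes, by the test of the difference itself in limma. The largest differences with a lower change in AsPC-1 were those of CMPK2 (-3.07), MX2 (-2.76), OAS2 (-2.71), TP63 (-2.61) and MX1 (-2.51), in log2 units. MX2 measured 53.7 and 68.0 TPM in mock AsPC-1 and 9.30 and 8.82 TPM with deltaNp63, and its log2 change in PANC-1 was 0.15. For TP63 the log2 change was 9.84 in PANC-1 and 7.23 in AsPC-1.

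The other direction held 3 genes with low values. ENSG00000250976 (1.68) was at 0 in the 4 AsPC-1 libraries, and its PANC-1 mean was 2.31 TPM in mock and 0 with deltaNp63. ENSG00000230355 (1.57) and RPL39P15 (1.34), a ribosomal protein pseudogene, were listed at 0 in AsPC-1 mock, at 1.87 and 2.06 TPM and at 1.47 and 1.60 TPM with deltaNp63, and had a mean of 0 in both PANC-1 groups.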

How the results depend on the processing

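The count of called genes (1055, with 94 rises and 961 falls) moved with the processing. It was 199 (51 and 148) after quantile normalization, 419 (249 and 170) after median centring, 568 (364 and 204) after centring within GC groups, which was chosen after seeing the data, 225 (30 and 195) with no filter on low values, and 190 (7 and 183) with weights by cell line. It was 8 (3 and 5) with only the 6 AsPC-1 libraries, 0 (0 and 0, with 2020 at an unadjusted p under 0.05) with only the groups compared, and 117 (10 and 107) at an absolute log2 change of at least 1. Rises numbered 39 without trend and 161 at a mean of at least 5 TPM. Leaving out 1 library gave counts between 98 and 4057, rises between 6 and 780 and falls between 91 and 3277, and the highest were those without the second deltaNp63 library. Replicate numbers were checked for pairing, and deviations of same-numbered mock and deltaNp63 libraries correlated at -0.09 over genes. With 2 replicates per group this check cannot tell whether same-numbered libraries were paired. With the replicate block 1633 genes were called (196 rises and 1437 falls).

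For deltaNp63 against TAp63 the count of 3 became 18 with no filter, and 0 at a mean of at least 5 TPM, with only the groups compared and with the replicate block, and between 2 and 1025 on leaving out a deltaNp63 library. For the difference from PANC-1 the count of 86 became 49 with only the groups compared, 95 with the replicate block and between 44 and 2196 on leaving out a library. The 157 firm falls stayed lower wherever they were tested, which only quantile normalization and GC centring could have changed. Of these, 131 were called after quantile normalization, 130 within GC groups and 123 with no filter. With the 6 AsPC-1 libraries 3 were called, and with only the groups compared 0. Under GC centring the sign turned for CD276 (0.025), H1-2 (0.012), CD68 (0.0043) and RPL3 (0.32, adjusted p = 0.0418). The causes were not tested. Depth is unknown, so its limit on low genes cannot be given.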
